A study of Mus musculus with 28 samples.

Results

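The 35 genes described here encode coat and trafficking proteins of the endoplasmic reticulum (ER) and the Golgi apparatus, out of 23995 genes listed in each file. They were chosen by name: 8 subunits of the COPI coat, 12 genes of the COPII coat and ER exit sites, 5 genes of the protein translocon of the ER, 5 cargo receptors of the p24 family and 5 Arf GTPases. The question addressed was whether ribosomes in the axons of retinal ganglion cells (RGCs) carry these mRNAs.

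Ribosome-bound mRNA was immunopurified through an HA tag on the ribosomal protein RPL22, which the RiboTag allele expresses after Cre recombination, from mice crossed with Pax6-alpha-Cre. This Cre line acts transiently in progenitors of the peripheral retina. The superior colliculus (SC), the brain target of RGC axons, was taken from Cre-positive animals, where tagged ribosomes are those of retinal axons, and from Cre-negative littermates, where no ribosome is tagged and the immunoprecipitate gives the background. The third tissue was the retina of Cre-positive animals, in which other retinal neurons are tagged besides RGCs, and which is called dissected retina in the study's main text and whole eyes in its supplementary methods. Each tissue was sampled in embryos (E17.5), at birth (P0.5), a week later (P7.5) and in adults, with 2 libraries per group, each from pooled tissue, making 24 libraries. Run-off of ribosomes was sequenced in adults only, as 4 libraries without replicates, with a treated and an untreated one for the Cre-positive SC and for the retina. The study describes the 2 SC libraries of a group as biological replicates. The p-values rest on the spread within groups, pooled over all groups of a fit and moderated, not on the compared libraries alone. Groups in which neither library holds a gene lower that gene's pooled spread.

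Secretory and membrane proteins enter the ER through the Sec61 translocon. COPII vesicles, built from the GTPase Sar1, the inner coat of Sec23 and Sec24 and the outer coat of Sec13 and Sec31, then carry them towards the Golgi, and COPI vesicles, recruited by Arf1, carry cargo back. Neurons use these proteins in the soma, and distal axons contain ER but few recognisable Golgi stacks.

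Expression is given as FPKM, a fragment count scaled to transcript length and library size, as deposited. Differences are on the log2(FPKM + 1) scale, which understates the change of genes listed near 0, and are followed by their standard error. Calls are limma's moderated test with Benjamini-Hochberg adjusted p under 0.05 across all tested genes. Depth estimated from the spacing of low FPKM values ranged from 479000 to 13700000 fragments, with 4 libraries under 1500000. Of these, 3 were adult SC libraries, and the shallowest was replicate 1 of E17.5 Cre-negative SC. An absent value in any of them says little. Between 1162 and 8769 genes were above 0 in a library. The 2 libraries of a group agreed closely at P0.5, with a correlation of 0.951 to 0.967 across genes, and less so elsewhere, down to 0.486 in E17.5 Cre-negative SC. Replicate 2 of P7.5 retina correlated with replicate 2 of adult retina at 0.951, more than either did with the other library of its own group (0.697 and 0.722).

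Of the 35 genes, 1 (Sec61g) was listed at 0 in each of the 24 libraries, and 8 did not reach 1 FPKM in 2 libraries. In Cre-positive SC, 26 genes reached 1 FPKM in at least 1 library, but none did so in both libraries at all 4 stages. The number at 1 FPKM or more in both libraries was 4 in embryos, 18 at birth, 3 in the P7.5 group and 1 in adults. Among all listed genes the share that met this criterion was 4.78%, 14.9%, 4.06% and 2.97% at those stages. In Cre-negative SC the counts were 5, 5, 2 and 3, beside 5.64%, 6.14%, 4.52% and 2.14% of all genes. In retina they were 5, 4, 2 and 3, beside 6.74%, 6.04%, 3.60% and 4.57%. By this limit P0.5 was the stage at which most of these mRNAs were recovered from the Cre-positive SC. Counted as above 0 FPKM in either library, the order was different, with 26 genes at E17.5 and 22 at P0.5.

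**Figure D1:**
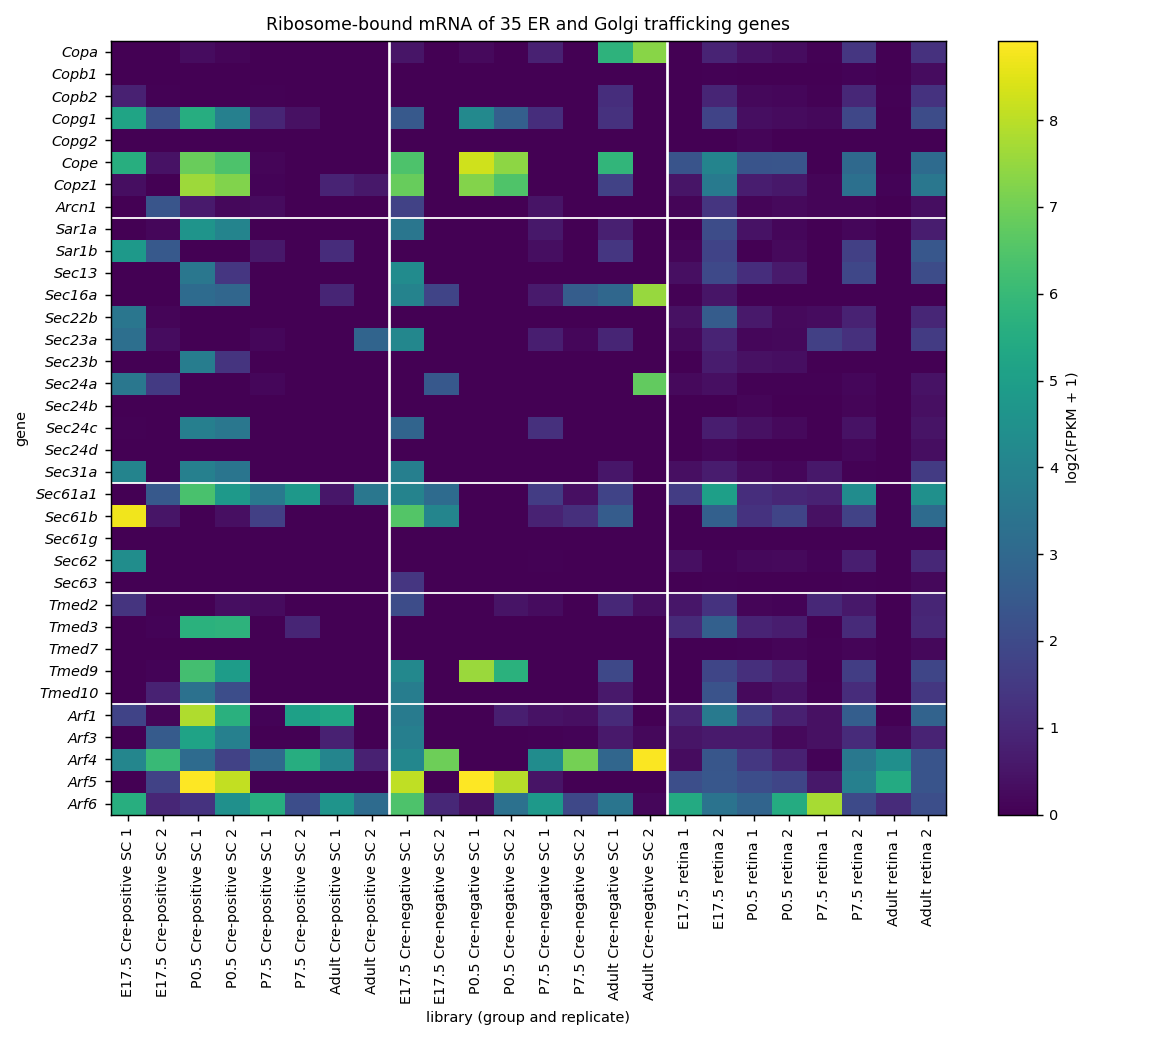
Level of each of the 35 genes (rows, grouped as COPI, COPII, translocon, p24 and Arf from top to bottom) in each of the 24 libraries (columns, by group and replicate), as log2(FPKM + 1) in colour. The 2 P0.5 Cre-positive SC libraries carry 18 of the 35 genes at 1 FPKM or more, whereas 5 are at that level in both P0.5 Cre-negative SC libraries.

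At P0.5 the Cre-positive and Cre-negative SC were compared first. In both Cre-positive libraries at 1 FPKM or more, and below 1 FPKM in both Cre-negative libraries, were 12 of the 35 genes. These were Sar1a, Sec13, Sec16a, Sec23b, Sec24c and Sec31a of the COPII group, the translocon gene Sec61a1, the p24 genes Tmed3 and Tmed10, and Arf1, Arf3 and Arf4. The same pattern held for 9.80% of all listed genes, and no gene of the 35 showed the reverse. Among genes above 0 in any of the 4 libraries, the values of the Cre-positive libraries lay wholly above those of the Cre-negative ones for 13 of 22 genes (59.1%), beside 62.2% of all such genes, so the share was near that of genes at large.

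In the limma fit of the 16 SC libraries, 25 of the 35 genes were tested and 7 were higher in Cre-positive SC at P0.5 (28.0%), beside 28.1% of 5983 tested genes. None of the 25 was lower by limma, also at an unadjusted p of 0.05, beside 4.35%. Of the 25, 5 (Sar1a, Sec13, Sec23b, Tmed3 and Tmed10) entered the fit only because of the P0.5 Cre-positive libraries, so they could hardly have failed to differ. Of the other 20, 4 were called (Sec24c, Sec61a1, Arf1 and Arf3), beside 13.1% of the 4716 genes that passed the filter without those libraries. The median log2 difference was 1.28 for the tested genes and 0.78 for all tested genes. The count fell to 0 without P0.5 Cre-positive replicate 1 and to 4 without replicate 2, and it was 7 with both. The filter was applied again after each removal, so a gene could also leave the test. Sec23b, at 1 FPKM or more in 2 libraries only, left it in both cases.

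Tmed3 (ENSMUSG00000032353, chromosome 9, 89699206 to 89705068 of mm10) encodes a p24 receptor that helps to load cargo into ER vesicles. Its P0.5 values were 50.7 and 53.3 FPKM with Cre and 0 in both Cre-negative libraries, a log2 difference of 5.73 ± 0.47 (SE, limma, Benjamini-Hochberg adjusted p = 9.25e-06). No other gene of the 35 had values as close between the Cre-positive libraries with none in the controls. Tmed3 entered the fit only because of these Cre-positive libraries, so its p-value is no support.

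The COPII coat gave 3 of the 7 calls. Of these, Sar1a and Sec23b entered the fit only because of the P0.5 Cre-positive libraries, so their p-values are no support. Sar1a (ENSMUSG00000020088, chromosome 10, 61680299 to 61693297), the GTPase that starts coat assembly, was at 23.5 and 15.4 FPKM against 0 and 0, a log2 difference of 4.32 ± 0.92 (limma adjusted p = 0.0042). Sec24c (ENSMUSG00000039367, chromosome 14, 20674308 to 20694852), a cargo adaptor of the inner coat, was at 13.5 and 10.5 FPKM against 0 and 0, a difference of 3.69 ± 0.79 (limma adjusted p = 0.0044). Sec23b (ENSMUSG00000027429, chromosome 2, 144556229 to 144590749), the partner of Sec24 in the inner coat, was at 12.7 and 1.52 FPKM against 0 and 0, a difference of 2.55 ± 0.58 (limma adjusted p = 0.0064). The groups did not overlap for these genes, and the Cre-positive libraries differed most for Sec23b. Sec24c overlaps 6230400D17Rik on the opposite strand and Arf5 overlaps Gcc1, which the unstranded reads cannot separate, and both partners were at 0 FPKM in the P0.5 SC libraries.

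The outer coat genes were present without passing the test. Sec31a was at 13.7 and 9.99 FPKM against 0 and 0 (limma adjusted p = 0.057) and Sec13 at 10.5 and 1.65 FPKM against 0 and 0 (limma adjusted p = 0.13). Sec16a, which organises ER exit sites, was at 7.62 and 6.64 FPKM against 0 and 0.0196. Sec22b, Sec23a, Sec24a, Sec24b, Sec24d and Sar1b, the paralog of Sar1a, were at 0 in all 4 P0.5 SC libraries. Thus the Sar1a, Sec23b and Sec24c forms were recovered at this stage, and the other forms of these subunits were not.

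Sec61a1 (ENSMUSG00000030082, chromosome 6, 88503579 to 88518905), the pore subunit of the translocon, was at 81.3 and 27.5 FPKM in Cre-positive SC and at 0 in both Cre-negative libraries, a log2 difference of 5.60 ± 1.29 (limma adjusted p = 0.0067). Its partner Sec61b was at 0 and 0.282 FPKM in Cre-positive SC, and Sec62 and Sec63, which assist import after translation, were at 0 in all 4 libraries.

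The Arf GTPases split. Arf1 (ENSMUSG00000048076, chromosome 11, 59211412 to 59228270), which recruits COPI, was at 230 and 49.4 FPKM against 0 and 0.676, a difference of 6.38 ± 2.03 (limma adjusted p = 0.034). Arf3 (ENSMUSG00000051853, chromosome 15, 98736634 to 98763214), a close relative, was at 35.02 and 13.8 FPKM against 0 and 0, a difference of 4.53 ± 1.19 (limma adjusted p = 0.013). Arf4 was at 7.74 and 2.42 FPKM against 0 and 0. Arf5, in contrast, was at 478 and 270 FPKM with Cre and at 481 and 245 FPKM without it, so that the groups overlapped. Arf6, which acts at the plasma membrane, was at 1.48 and 21.2 FPKM against 0.333 and 9.06, and the 2 libraries of a group differed more than the groups.

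Because reads of near-identical copies can be assigned to either, the first 30 coding bases of the Arf mRNAs, from the GENCODE M21 transcripts on GRCm38, are shown with capitals where a base differs from Arf1 at the same position.
Arf1: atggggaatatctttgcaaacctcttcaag
Arf3: atgggCaatatctttgGGaacctTCtGaag
Arf4: atgggCCTCaCcAtCTcCTCTctcttcTCg
Arf5: atgggCCTCaCGGtGTcCGCGctcttTTCg
Arf6: atggggaaGGtGCtATcCaaGAtcttcGGg
Arf3 differed from Arf1 at 6 of these positions, Arf6 at 11, Arf4 at 14 and Arf5 at 16. Over the coding sequence, Arf1 and Arf3 were 83.7% identical and their transcripts shared no identical run longer than 29 bases, Sar1a and Sar1b were 78.6% identical with a longest run of 20 bases, and Sec23a and Sec23b were 75.3% identical, also with a longest run of 20 bases. Among the pairs compared, the longest runs were those of Arf1 with Arf6, 39 bases, and of Copg1 with Copg2, 30 bases. Only a read lying wholly within a shared run could be assigned to either gene, and read length was not examined here.

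A set of 5 genes was also abundant in the background. Copg1, Cope, Copz1, Tmed9 and Arf5 were the genes at 1 FPKM or more in both P0.5 Cre-negative libraries. Cope, a small COPI subunit, was at 116 and 84.2 FPKM in Cre-positive SC and higher, at 305 and 167 FPKM, in Cre-negative SC. Tmed9 was at 74.4 and 29.2 FPKM against 188 and 50.3, Copz1 at 192 and 148 FPKM against 153 and 87.1, and Copg1 at 46.4 and 13.8 FPKM against 17.4 and 5.46. None of the 5 passed the test. Together they made 64.6% and 71.5% of the summed FPKM of the 35 genes in the Cre-positive libraries, and 100% and 98.2% in the Cre-negative ones. The sum itself was 1404 and 763 FPKM in Cre-positive SC and 1146 and 565 FPKM in Cre-negative SC, so the groups overlapped in the sum. The 12 genes at 1 FPKM or more in the Cre-positive libraries alone held 495 and 195 FPKM of it against 0 and 0.695. These 12 were chosen for that pattern, so their low Cre-negative sum followed from the choice and is a description only.

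**Figure D2:**
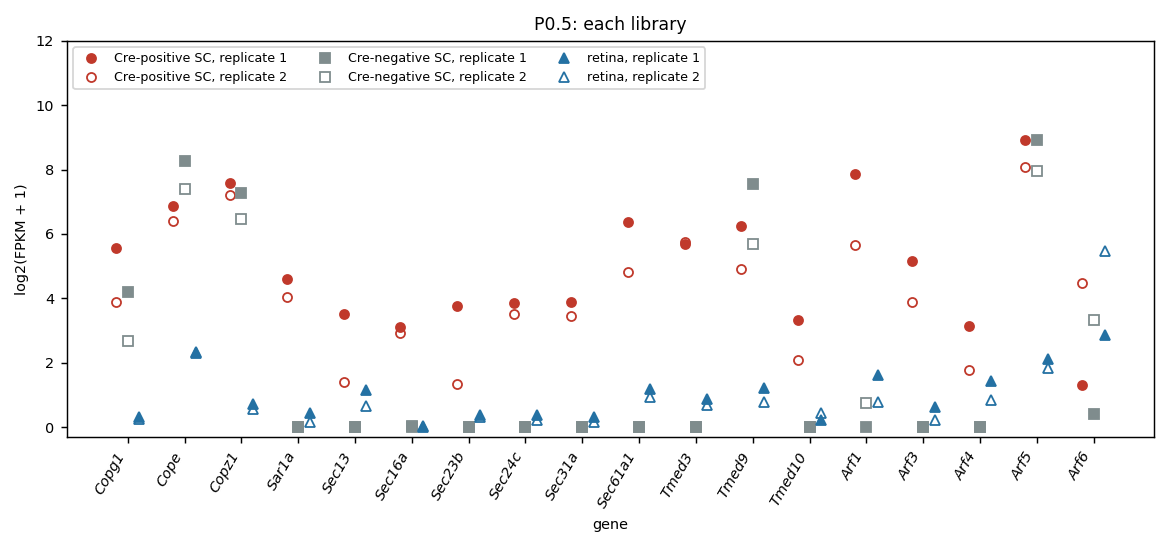
P0.5 levels as log2(FPKM + 1) of every gene that reached 1 FPKM in an SC library of that stage, with 1 point per library, for SC with and without Cre and for retina. The Cre-negative points lie at or near 0 for 12 genes, whereas for Cope and Tmed9 they lie at 305 and 167 FPKM and at 188 and 50.3 FPKM.

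Markers of other cells in the SC were looked at in the same libraries. At P0.5, 4 of 12 RGC markers (Rbpms, Thy1, Nefh and Sncg) were at 0 in both Cre-positive libraries and 6 in both Cre-negative ones, and the summed level was 1099 and 653 FPKM against 940 and 330. In P0.5 retina 1 of the 12 (Nefh) was at 0. There Pou4f1 alone averaged 2631 FPKM, beside sums of 4045 and 1233 FPKM, so an RGC sum can rest largely on 1 marker. All 8 photoreceptor markers were at 0 in the 4 SC libraries. Of 8 astrocyte markers, 4 were at 1 FPKM or more in both Cre-positive libraries and 2 in both Cre-negative ones, with sums of 67.3 and 58.2 FPKM against 15.9 and 38.3, and Aqp4, Gfap and S100b were at 0. Of 8 oligodendrocyte markers, 6 were at 0 in both Cre-positive libraries and 7 in both Cre-negative ones, with sums of 101 and 91.2 FPKM against 86.2 and 48.1. The 8 microglia markers were at 0 in Cre-positive SC. In Cre-negative SC 7 of them were at 0 in both libraries, and C1qa alone made the sum of 77.0 and 43.2 FPKM. Endothelial markers summed to 61.0 and 28.3 FPKM against 82.7 and 48.2, with 4 of 6 (Pecam1, Flt1, Kdr and Esam) at 0 in both groups. Of 4 markers of GABAergic neurons, Gad1, Gad2 and Slc32a1 were at 0 in both groups, and the sums were 96.9 and 26.8 FPKM against 56.5 and 13.1. Astrocyte and oligodendrocyte sums were thus higher in the Cre-positive libraries, and their part in the differences above was not tested. Fewer cells of a type and less RNA per cell cannot be told apart in such bulk samples.

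Genes of the same pathway outside the 35 were examined in lists. Whether they passed the filter only through the P0.5 Cre-positive libraries was not examined, so their higher calls are a description. Of 10 genes of the signal recognition particle and its receptor, 4 were tested and 2 were higher. Srp72 was at 47.8 and 25.3 FPKM in Cre-positive SC against 0 and 0.0245 (log2 difference 5.15 ± 0.43, limma adjusted p = 9.25e-06), and Srp68 at 17.8 and 3.47 FPKM against 0 and 0. Of 20 genes of signal peptidase, the translocon-associated complex and oligosaccharyl transferase, 14 were tested and 3 were higher, Rpn2, Dad1 and Tusc3, with Rpn2 at 52.5 and 26.5 FPKM against 0.116 and 0.0331. Of 19 Arf exchange factors and GTPase activators, 11 were tested and 1 was higher, Psd2, at 17.2 and 2.97 FPKM against 0.0339 and 0.0193.

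Of 25 cargo receptors, tethers and SNAREs of the ER to Golgi step, 17 were tested, 6 were higher and 2 were lower. Ergic1 was at 60.2 and 38.8 FPKM against 0.0579 and 0, Uso1, a tether, at 21.4 and 16.3 FPKM against 0 and 0, and Gorasp1, a Golgi stacking protein, at 12.7 and 3.78 FPKM against 0 and 0. The 2 lower genes, named after their values were seen, were Tfg, at 0 and 0 FPKM against 73.5 and 19.2, and Golga2, at 0 and 0.0264 FPKM against 43.1 and 8.98. Of 14 TRAPP genes, 9 were tested and 2 were higher, Trappc3 at 227 and 131 FPKM against 0.137 and 0.0784, and Trappc2l at 170 and 151 FPKM against 0.342 and 0. Of 11 paralogs of the 35 genes, 3 were tested and 1, Arf2, was higher, at 13.9 and 4.80 FPKM against 0 and 0. The background for each of these counts is the 28.1% higher and 4.35% lower given above. The 28.1% includes genes that passed the filter only through the P0.5 Cre-positive libraries, and was 13.1% among genes that passed without them.

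At the other stages the Cre comparison gave few calls. At E17.5, 1 of 25 tested genes was higher (background 0.468%) and none was lower (background 1.10%). This was Sar1b (ENSMUSG00000020386, chromosome 11, 51763687 to 51791925), at 26.4 and 4.56 FPKM in Cre-positive SC against 0 and 0, a log2 difference of 3.63 ± 0.76 (limma adjusted p = 0.046). The count was 0 without Cre-positive replicate 1 or without Cre-negative replicate 1, and 8, with 7 of them lower in Cre-positive SC, without Cre-negative replicate 2. Sar1b was also no longer called with a pseudocount of 0.1, without the filter or in a fit of that stage alone. Cre-negative replicate 1 was the shallowest library, in which 3 fragments on a transcript of 2 kb would be 3.13 FPKM. Its 0 for Sar1b therefore says little. The E17.5 Cre-negative libraries differed widely, with 22 of the 35 genes above 0 in replicate 1 and 6 in replicate 2. Astrocyte markers summed to 27.8 and 37.0 FPKM in E17.5 Cre-positive SC against 246 and 115 in Cre-negative SC, and microglia markers to 0.143 and 0.0891 FPKM against 168 and 28.2. Endothelial markers summed to 210 and 0.0606 FPKM against 4.44 and 0. In Cre-positive and in Cre-negative SC alike, 4 of 8 astrocyte, 6 of 8 microglia and 4 of 6 endothelial markers were at 0 in both libraries. The sums thus rest on the remaining markers, and the part of these cells in the E17.5 difference was not tested.

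At P7.5 no gene passed (0 of 25, limma), beside 0 of 5983 genes in either direction, with 1 gene under an unadjusted p of 0.05. This was Sec61a1, at 11.2 and 26.2 FPKM in Cre-positive SC against 2 and 0.296 (limma adjusted p = 1). In the adult, 1 gene was lower in Cre-positive SC (background 0.0669%) and none was higher (background 0.0836%). Copa (ENSMUSG00000026553, chromosome 1, 172082529 to 172122330), the largest COPI subunit, was at 0 and 0 FPKM in Cre-positive SC against 53.7 and 161 in Cre-negative SC, a log2 difference of -6.56 ± 0.63 (limma adjusted p = 0.0033). Copa reached 1 FPKM in no other SC library. It entered the SC fit only because of these 2 Cre-negative libraries, so its call is no support. Without Cre-negative replicate 2 the adult count was 0, and without Cre-negative replicate 1 it was 2. With either left out, Copa no longer passed the filter. It was also not called in a fit of that stage alone (limma adjusted p = 0.999). Copa shares its locus with Ncstn on the opposite strand, which was at 0.669 and 0 FPKM in those Cre-negative libraries. In Cre-negative replicate 2, Arf4, Sec16a, Copa and Sec24a, at 459, 184, 161 and 108 FPKM, made 99.9% of the summed level of the 35 genes. Oligodendrocyte markers summed to 275 and 4148 FPKM in adult Cre-negative SC, with Mog, Mag and Mobp at 0, against 735 and 990 FPKM in Cre-positive SC, so these groups overlapped. RGC markers summed to 606 and 0 FPKM in adult Cre-negative SC against 121 and 29.2 in Cre-positive SC, photoreceptor markers to 126 and 3.35 FPKM against 8.30 and 6.02, and lens and pigment epithelium markers to 260 and 1.33 FPKM against 2.71 and 11.2. The first Cre-negative library was thus the highest for the RGC, photoreceptor and lens sums, whereas Copa was higher in the second. At 0 in both Cre-negative libraries were 8 of 12 RGC markers and 3 of 8 lens and pigment epithelium markers (Crygs, Rpe65 and Tyrp1). Of the RGC sum in adult Cre-positive SC, Pou4f1 alone averaged 68.4 FPKM. The part of such cells in the Copa difference was not tested.

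The Cre-positive SC, axonal signal and background together, was next compared with retina, in a fit of all 24 libraries. This shares the Cre-positive SC libraries with the comparison above. Lens and pigment epithelium markers summed to 403 and 304 FPKM in P0.5 retina against 0 and 1.62 FPKM in Cre-positive SC. The pigment epithelium markers Rpe65 and Tyrp1 were at 0 in both P0.5 retina libraries, so crystallins made this sum. Whether it came from lens, and its part in the comparison, was not tested. At P0.5, 11 of 27 tested genes were higher in Cre-positive SC (40.7%), beside 26.4% of 7193 genes, and none was lower, beside 1.49%. Of the 11, Sec23b entered this fit only because of the P0.5 Cre-positive libraries, and 10 of the other 26 were called, beside 18.5% of the 6398 genes that passed without them. The values did not overlap and were higher in Cre-positive SC for 17 of 32 genes above 0 (53.1%, beside 36.3% of such genes). They were lower there for 8 (25.0%, beside 36.0%). Among the 17 were the 5 genes abundant in Cre-negative SC, Copg1, Cope, Copz1, Tmed9 and Arf5. Of these, Cope lay wholly lower with Cre than without it, so a level above retina need not be axonal. The 11 included 6 of the 7 genes called against Cre-negative SC (Tmed3, Sar1a, Sec24c, Sec23b, Arf3 and Arf1) and 5 others, Copz1, Tmed9, Copg1, Arf5 and Sec31a.

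The 4 of these other genes that were also abundant in Cre-negative SC had low retina values. Arf5 was at 3.33 and 2.60 FPKM in retina (log2 difference 6.51 ± 1.87, limma adjusted p = 0.015) and Copz1 at 0.659 and 0.488 FPKM (6.76 ± 1.78, limma adjusted p = 0.0090). Tmed9 was at 1.32 and 0.710 FPKM (4.58 ± 1.26, limma adjusted p = 0.012) and Copg1 at 0.255 and 0.191 FPKM (4.44 ± 1.23, limma adjusted p = 0.012). For these 4 a higher level in Cre-positive SC than in retina came with a level of the same order in the Cre-negative SC. Tmed3 was at 0.854 and 0.630 FPKM in retina (4.93 ± 0.66, limma adjusted p = 2.29e-05), and Arf1 at 2.07 and 0.728 FPKM (5.55 ± 1.89, limma adjusted p = 0.038).

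The axon and retina count depended on single libraries. It was 3 without P0.5 Cre-positive replicate 1, 7 without replicate 2, 6 without retina replicate 1 and 4 without retina replicate 2. At E17.5, P7.5 and adult, none of 27 genes was called in either direction by limma, with 3, 0 and 0 under an unadjusted p of 0.05. The background at those stages was 0.459% higher and 0.862% lower at E17.5, 0% at P7.5, and 0.0973% higher in the adult. The count at E17.5 was 2 without Cre-positive replicate 2. In retina itself no gene of 17 tested was called between successive stages, beside at most 0.0490% of 4080 genes in 1 direction, with none under an unadjusted p of 0.05.

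Between stages in the Cre-positive SC, the P0.5 libraries stood apart from those before and after. From E17.5 to P0.5, 8 of 25 genes rose (32.0%, background 25.1%) and 1 fell (background 1.81%). Those that rose were Tmed3, Sec24c, Sar1a, Sec23b, Tmed9, Copz1, Arf5 and Sec61a1, and Sar1b fell. From P0.5 to P7.5, 9 genes fell (36.0%, background 29.2%) and none rose (background 0.501%). These were Tmed3, Sar1a, Sec24c, Sec23b, Tmed9, Arf5, Copz1, Arf3 and Copg1. From P7.5 to adult none of 25 was called, beside 0.0836% higher and 0% lower, and none was under an unadjusted p of 0.05. Tmed3, Sar1a and Sec23b, which entered the fit only because of the P0.5 Cre-positive libraries, are 3 of the 8 that rose and 3 of the 9 that fell, so their calls support neither change. Among the other 20 genes 5 rose and 6 fell, beside 10.5% and 14.9% of the 4716 genes that passed without those libraries, and for the single fall of Sar1b that background was 2.29%. Both changes share the P0.5 libraries, and the counts were 0 without P0.5 Cre-positive replicate 1 in each, and 2 and 4 without replicate 2.

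Tmed3 was at 0 and 0.0678 FPKM at E17.5, 50.7 and 53.3 at P0.5 and 0 and 0.895 at P7.5, a log2 rise of 5.68 ± 0.47 (limma adjusted p = 1.05e-05) and a fall of -5.27 ± 0.47 (limma adjusted p = 1.35e-05). Copz1 went from 0.262 and 0 FPKM to 192 and 148 and then to 0.0585 and 0. In Cre-negative SC, Copz1 was at 114 and 0 FPKM at E17.5, 153 and 87.1 at P0.5 and 0 and 0 at P7.5. Arf5 likewise was at 267 and 0 FPKM in E17.5 Cre-negative SC and at 0.389 and 0 at P7.5. The controls of Copz1 and Arf5 therefore also stood high at P0.5.

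**Figure D3:**
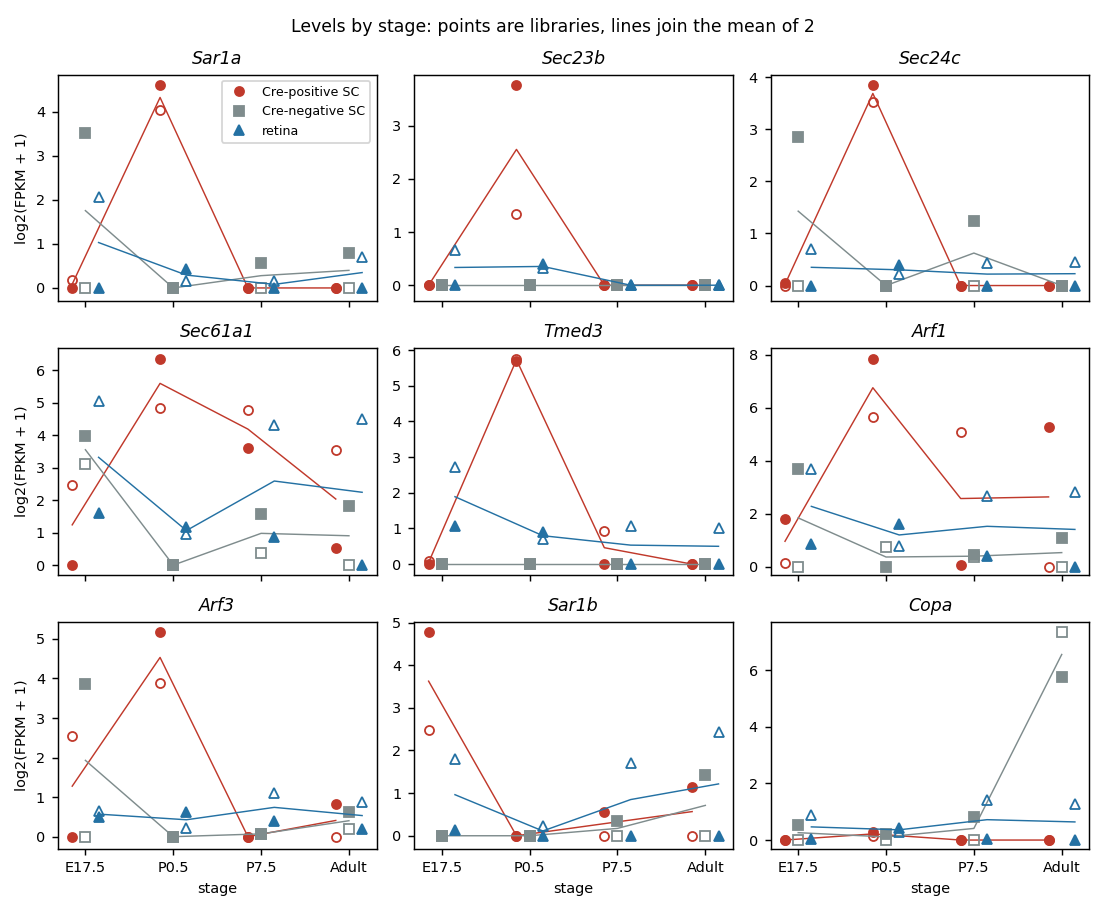
Levels at each stage, as log2(FPKM + 1), for 9 genes named in the Cre comparisons, with 1 point per library and lines through the mean of the 2 log2 values. Tmed3 reaches 50.7 and 53.3 FPKM in Cre-positive SC at P0.5 alone, Sar1b is at 26.4 and 4.56 FPKM at E17.5, and Copa is at 53.7 and 161 FPKM in adult Cre-negative SC.

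The change of the Cre difference between stages was tested as an interaction, which removes what Cre-positive and Cre-negative SC share. From E17.5 to P0.5 it was higher for 8 of 25 genes (32.0%, background 23.9%), namely Tmed3, Sar1a, Sec24c, Sec61a1, Sec23b, Arf3, Sec16a and Tmed10, and lower for Sar1b (background 3.23%). From P0.5 to P7.5 it was lower for 3 of 25 (background 18.7%), Tmed3, Sec24c and Sar1a, and higher for none (background 2.74%). Of the first 8, Tmed3, Sar1a, Sec23b and Tmed10 entered the fit only because of the P0.5 Cre-positive libraries, as did Tmed3 and Sar1a among the 3, so these calls are no support. The other 20 genes gave 4 higher and Sar1b lower in the first interaction, beside 9.35% and 4.09% of the 4716 genes that passed without those libraries, and 1 lower in the second, beside 5.20%. Copz1, Tmed9 and Arf5, which changed between stages in the Cre-positive SC, were not called. At E17.5, Sec16a and Sec61a1 lay wholly lower in Cre-positive than in Cre-negative SC, which adds to their interaction. Sar1b was at 0 in the P0.5 SC libraries, so its interaction repeats its E17.5 difference. The first count was 0 without P0.5 Cre-positive replicate 1 and 4 without replicate 2 or without either P0.5 Cre-negative library. The second count was 0 without either P0.5 Cre-positive library, and 1 without either P0.5 Cre-negative library, either P7.5 Cre-positive library or P7.5 Cre-negative replicate 1. The first was also 5 without E17.5 Cre-negative replicate 1.

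The adult run-off libraries measure whether an mRNA leaves the immunoprecipitate once elongating ribosomes are allowed to finish. They hold read counts, 3262914 reads without and 349395 with run-off in Cre-positive SC, and 4686284 and 315009 in retina. In SC, 18 of the 35 genes had a read without run-off, beside 22.3% of all genes, and 11 had one after it. In retina the numbers were 30, beside 38.2% of all genes, and 13. Reads on the 35 genes went from 2536 to 501 in SC (19.8%, while all reads went to 10.7%) and from 4751 to 232 in retina (4.88%, while all reads went to 6.72%).

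Of 20 genes with a read in either SC library, 16 had fewer after run-off (80.0%), beside 84.9% of all such genes, and 9 had none left (45.0%, beside 52.9%). In retina 29 of 31 had fewer (93.5%), beside 92.1%, and 18 had none left (58.1%, beside 60.5%). All genes of a tissue share the same libraries, so they are not replicates of run-off. The shares were near those of all genes. Scaled to the reads of each library (CPM), 12 of 20 genes decreased in SC (beside 72.3%) and 25 of 31 in retina (80.6%, beside 71.9%).

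In SC the genes with most reads were Arf1, Copg1 and Sec31a. Arf1 went from 521 to 34 reads (6.53%, exact 95% interval 4.47 to 9.24), Copg1 from 510 to 187 (36.7%, interval 30.8 to 43.4) and Sec31a from 306 to 2 (0.654%, interval 0.0788 to 2.38). Arf1 and Sec31a thus kept a smaller share of their reads than the library did, and Copg1 a larger one. The genes whose reads did not fall were Sec62, from 14 to 52, Cope, from 0 to 45, Sec61b, from 0 to 1, and Copb2, with 1 in each.

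In retina the genes with most reads were Sec24a, from 1255 to 19 (1.51%, interval 0.908 to 2.37), Arf6, from 738 to 2 (0.271%, interval 0.0328 to 0.982), and Copb2, from 330 to 0. Those that did not fall were Sec61a1, from 27 to 33 (122%, interval 71.3 to 211), and Sec24d, from 0 to 12. A count of 0 was taken to allow up to 3 reads, which is 8.59 CPM in SC and 9.52 in retina after run-off. The intervals and this limit cover counting error only, since the reads were amplified without molecular identifiers, and no difference here has a replicate check.

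**Figure D4:**
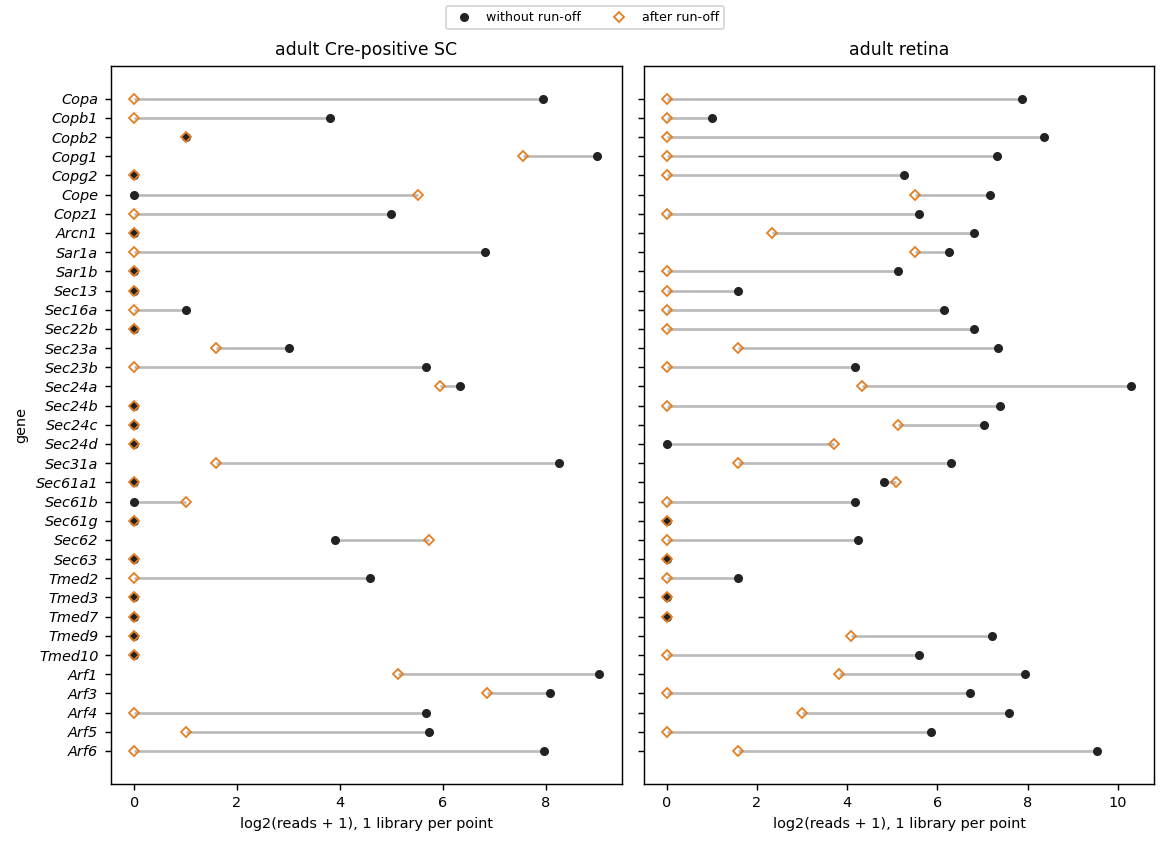
Reads of each of the 35 genes in the adult run-off libraries, as log2(reads + 1), with a filled circle for the library without run-off and an open diamond for the library after run-off, 1 library each. Most lines run to lower reads after run-off, with Copg1 going from 510 to 187 and Sec62 rising from 14 to 52 in Cre-positive SC.

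The adult Cre-positive SC of the run-off experiment held mRNAs that the 2 adult Cre-positive FPKM libraries did not. Of 15 genes with 10 or more reads in the library without run-off, 10 were listed at 0 FPKM in both (66.7%, beside 54.0% of 4010 such genes). They included Copg1 with 510 reads, Sec31a with 306, Copa with 247 and Sar1a with 112. Copa, called lower in adult Cre-positive than in Cre-negative SC above, thus had 247 reads in a separate Cre-positive library, and no run-off library of Cre-negative SC was analysed here.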

How the data were processed

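Ribosome-bound mRNA was sequenced in 24 stage libraries and 4 run-off libraries. The authors amplified the cDNA from oligo(dT) by PCR without strand information, mapped reads to mm10 with TopHat2 2.0.12 and, for the stage libraries, deposited the FPKM that Cufflinks 2.2.1 estimated, and unscaled counts of reads per gene from HTSeq 0.6.1p1 for the run-off libraries, whose input had been adjusted to the amount of cDNA. Groups follow the labels of each sample.

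The members and lists were chosen with earlier results of these data known. Values of log2(FPKM + 1) were compared in R 4.3.3 (limma 3.58.1, statmod 1.5.0), with trended, robust moderation, for genes at 1 FPKM or more in at least 2 libraries of the fit. The 16 SC libraries (5983 genes), all 24 libraries (7193 genes, axon against retina) and the 8 retina libraries (4080 genes) were fitted separately, and two-sided p-values were adjusted by Benjamini and Hochberg within a contrast. All 4 genes with a missing entry were left out of the FPKM comparisons. Named genes were every member called in any contrast, in run-off the 3 members with most reads and those whose reads did not fall, and up to 3 genes of each other list with the smallest p at P0.5. Other members are given to account for all 35. Alternatives were a pseudocount of 0.1, no filter, median-ratio scaling, a replicate block, leaving out each library, a fit of 1 stage, other presence limits, and CPM or at least 10 reads for run-off. The filter was applied again after each library was left out. The scripts were tested on simulated data. Locations and transcripts are from GENCODE M21. Python 3.11.15 was used.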

Additional observations from a re-analysis of the deposited data

Results flagged for a closer look

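The Cre difference changed between stages, by the interaction test of limma, for 9 genes from E17.5 to P0.5. On the log2 scale it rose by 7.91 for Sec61a1, 5.99 for Sar1a, 5.91 for Sec16a, 5.68 for Tmed3, 5.18 for Arf3, 5.09 for Sec24c, 4.17 for Tmed10 and 2.55 for Sec23b, and the change was -3.63 for Sar1b. Adjusted p-values ran from 0.000245 for Tmed3 to 0.0474 for Tmed10. Tmed3, Sar1a, Sec23b and Tmed10 had passed the filter on low values only through the P0.5 Cre-positive libraries, so their values are a description. The rises of Sec61a1 and Sec16a include E17.5 values that lay wholly lower in Cre-positive than in Cre-negative SC, where 1 control was the shallowest library. The -3.63 of Sar1b, at 0 in the P0.5 SC libraries, is its E17.5 difference again. From P0.5 to P7.5 the Cre difference changed by -5.27 for Tmed3, -4.60 for Sar1a and -4.31 for Sec24c.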

How the results depend on the processing

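Counts are of the 35 genes called. At E17.5 the Cre count of 1 (Sar1b) became 0 with a pseudocount of 0.1, without the filter, with the replicate block and in a fit of that stage alone. In the adult the count of 1 became 0 with the replicate block (Copa, limma adjusted p = 0.10) and in a fit of that stage alone. At P0.5 the Cre count was 4 among genes that passed the filter without the P0.5 Cre-positive libraries, an alternative chosen after seeing the data, beside 13.1% of all such genes. The axon against retina count at P0.5 became 5 with a pseudocount of 0.1. The first interaction count became 5 without the filter, and the second became 5 with a pseudocount of 0.1. Leaving out 1 library gave 0 to 8 for Cre at E17.5, 0 to 5 at P0.5 and 0 to 2 in the adult. It gave 0 to 2 for axon against retina at E17.5 and 3 to 7 at P0.5, 0 to 11 for P0.5 against E17.5, 0 to 7 for P7.5 against P0.5, and 0 to 13 and 0 to 2 for the interactions. With a limit of 10 FPKM, 11 genes were present in P0.5 Cre-positive SC and 0 in retina, and above 0 FPKM the order of the 2 tissues was the opposite, with 20 in Cre-positive SC and 29 in retina. The cause of these shifts was not tested.

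Replicate numbers were not taken as pairs, since the correlation of same-numbered deviations between Cre-positive and Cre-negative SC was 0.39 at E17.5, 0.43 at P0.5 and 0.32 at P7.5 but 0.062 in the adult. Cre-positive and Cre-negative animals came from 1 litter by the study's methods, but neither these nor the labels say that a replicate number marks a litter. With the replicate block the Cre count at P0.5 was 7, though Arf3 was no longer called and Sec31a was. Median-ratio scaling moved the median of the retina changes by 0.50 and -0.31 on the log2 scale and no retina count.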
